A study of Homo sapiens with 14 samples.

Results

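The WNT pathway target genes AXIN2, NKD1, NOTUM, RNF43, ZNRF3, LGR5, ASCL2, SP5, TCF7 and LEF1 were taken by gene symbol, 10 of the 23106 genes counted, and their transcripts were compared between PC3 and HCT116 cells and between normoxia and hypoxia. PC3 is an established prostate carcinoma line and HCT116 an established colorectal carcinoma line that carries mutant beta-catenin. Polyadenylated RNA was sequenced after 16 h at 21% O2 (normoxia) or at 0.5% O2 (hypoxia), with 4 biological replicates of PC3 in each condition and 3 of HCT116. No genetic change or drug was added in any of the 14 libraries. PC3 was grown in a mix of DMEM and Hams F12 medium and HCT116 in McCoy's 5a medium, and each line is 1 lineage, so origin, mutations and medium cannot be told apart in any difference between the lines.

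In the canonical WNT pathway, a WNT ligand bound to Frizzled and LRP receptors stops a cytoplasmic destruction complex of AXIN, APC and GSK3 from marking beta-catenin for degradation. Beta-catenin then enters the nucleus, joins TCF and LEF transcription factors on DNA and turns on target genes. Many of these targets feed back on the pathway: AXIN2 is a scaffold of the destruction complex, NKD1 binds Dishevelled, NOTUM is a secreted enzyme that strips the lipid from WNT ligands, and RNF43 and ZNRF3 are membrane ubiquitin ligases that remove Frizzled receptors. LGR5 is an R-spondin receptor and marks intestinal stem cells, ASCL2 and SP5 are transcription factors, and TCF7 and LEF1 are themselves DNA-binding partners of beta-catenin.

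Of the 10 members, 4 (SP5, LEF1, TCF7 and RNF43) had an entry among the RefSeq promoter sequences (GRCh38.p14), which gave 6 windows of the 250 bases before an annotated start. They were searched on both strands for CTTTGAA and CTTTGAT, the letters that TCF and LEF factors are known to prefer, which do not overlap each other. The SP5 window, chr2:170715087-170715336 on the plus strand, held 3 matches and is shown for that reason, with the matches in capitals (TTCAAAG is CTTTGAA read on the other strand).

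SP5 promoter: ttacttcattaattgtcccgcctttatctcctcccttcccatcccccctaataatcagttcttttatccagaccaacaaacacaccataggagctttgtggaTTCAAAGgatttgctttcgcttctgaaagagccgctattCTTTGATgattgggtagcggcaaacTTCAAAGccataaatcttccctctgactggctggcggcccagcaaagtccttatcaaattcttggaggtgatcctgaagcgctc

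The matches lay 148 to 142, 109 to 103 and 84 to 78 bases before the start. No match was found in the windows of LEF1, TCF7 or RNF43. Over all 35116 promoter windows of this length, 5.94% held at least 1 match and 7 windows, 0.0199%, held 3 or more. The letters ACGTG and GCGTG, the core bound by the hypoxia-inducible factor HIF, occurred once in 1 RNF43 window (GCGTG, 71 to 67 bases before the start) and in none of the SP5, LEF1 and TCF7 windows, against 43.2% of all windows. A match describes the sequence and does not show that a factor binds there.

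The libraries held 71228454 to 123935458 counts in PC3 and 133067391 to 150630928 in HCT116, and every hypoxic PC3 library was smaller than every normoxic one. Levels are given as CPM, counts brought to a common library size by TMM scaling over the 14 libraries, and 3 counts in a library, used as the floor of detection, corresponded to 0.0201 to 0.0447 CPM, which covers counting error only. The markers fixed for epithelial cells were all at 1 CPM or more in both lines (5 of 5). Of the prostate luminal markers, KLK3, KLK2 and FOLH1 were under 1 CPM in PC3, and of the colon markers VIL1, LGALS4, CDH17 and GPA33 were under 1 CPM in HCT116 (2 of 6 reached it). The hypoxia-responsive genes CA9, NDRG1, VEGFA and BNIP3 were called higher in hypoxia in both lines, CA9 by a log2 fold change of 1.66 ± 0.36 (SE) in PC3 and 6.03 ± 0.18 in HCT116.

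The question of the first comparison was how the targets differ between a line with mutant beta-catenin and one of another origin. In normoxia, 9 of the 10 members were tested and all 9 differed between the lines, 5 higher in HCT116 (AXIN2, NKD1, NOTUM, RNF43 and TCF7) and 4 lower (SP5, LEF1, LGR5 and ZNRF3). These lines differ at most genes: 81.3% of the 15493 genes tested were called, 38.9% higher and 42.4% lower in HCT116, so a count of 9 of 9 stands against a background in which most genes differ. The libraries of the lines did not overlap for 8 of the 9, all but ZNRF3, and for 82.4% of all genes (39.7% with HCT116 higher and 42.7% with HCT116 lower). The median log2 fold change was 1.36 over the members tested, also with LEF1, which had no counts in HCT116, set to its bound, and -0.054 over all genes. As the samples are bulk cultures, more cells with a transcript and more transcript per cell cannot be told apart.

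**Figure D1:**
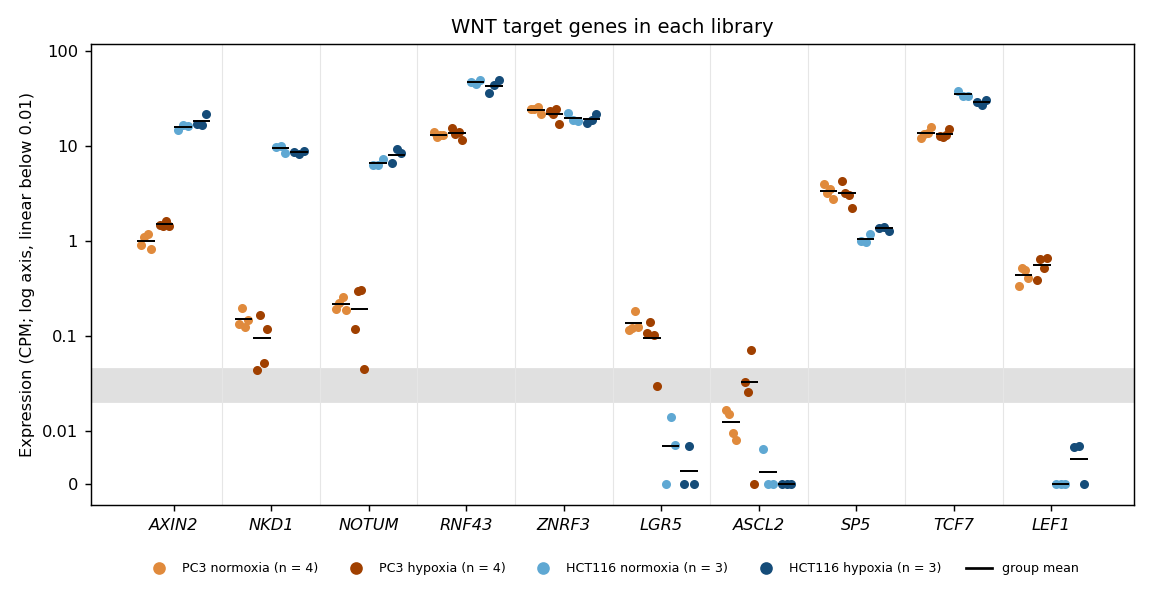
Expression of each member in each of the 14 libraries, in CPM on a log axis that is linear below 0.01, with black bars at the group means and a grey band at the level of 3 counts per library. AXIN2, NKD1 and NOTUM lie higher in HCT116 than in PC3, LEF1 lies between 0.335 and 0.670 CPM in PC3 and at 0 to 0.00719 CPM in HCT116, and ASCL2 is above 3 counts in 1 library only.

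The inhibitors of signalling held the largest rises in HCT116. AXIN2 (GRCh37 chromosome 17, 63524681 to 63557766, minus strand) was at 0.914, 1.12, 1.19 and 0.837 CPM in the normoxic PC3 replicates 1 to 4 and at 15.0, 16.9 and 16.6 CPM in the normoxic HCT116 replicates 1 to 3. The groups lay far apart, with means of 1.02 ± 0.17 CPM (SD, n = 4) and 16.2 ± 1.0 CPM (n = 3), a log2 fold change of 3.99 ± 0.14 (SE), about 15.9-fold (edgeR adjusted p = 6.36e-13). NKD1 (chromosome 16, 50582307 to 50683160, plus strand) was at 0.134, 0.199, 0.126 and 0.149 CPM in PC3, on 13 to 26 counts, and at 9.88, 10.1 and 8.61 CPM in HCT116. It had the largest rise of the 5 members higher in HCT116, 5.95 ± 0.23 on the log2 scale (edgeR adjusted p = 2.82e-12). NOTUM (chromosome 17, 79910383 to 79919716, minus strand) was at 0.193, 0.222, 0.262 and 0.191 CPM in PC3 and 6.31, 6.41 and 7.36 CPM in HCT116. The libraries of the lines did not overlap, and the log2 fold change was 4.95 ± 0.30 (edgeR adjusted p = 5.59e-10).

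The receptor ubiquitin ligases RNF43 and ZNRF3, close relatives that act on the same receptors, differed between the lines in opposite directions. RNF43 (chromosome 17, 56431037 to 56494956, minus strand) was at 14.2, 12.6, 13.1 and 13.2 CPM in normoxic PC3 and at 48.0, 45.8 and 49.5 CPM in normoxic HCT116, 3.60-fold higher (log2 fold change 1.85 ± 0.11, edgeR adjusted p = 2.52e-10). ZNRF3 (chromosome 22, 29279560 to 29453476, plus strand) was at 24.5, 24.8, 26.2 and 21.8 CPM in PC3 and 22.2, 19.1 and 18.5 CPM in HCT116. The ZNRF3 libraries of the lines overlapped, and its log2 fold change of -0.29 ± 0.12 (95% interval -0.54 to -0.03, edgeR adjusted p = 0.0377) passed the test narrowly. The ZNRF3 call was lost with upper-quartile scaling (adjusted p = 0.102), in hypoxia (0.192), without both PC3 libraries of number 1 (0.0501) and without any of 7 single libraries (PC3 normoxia replicates 1, 2 and 3, HCT116 normoxia replicates 2 and 3, HCT116 hypoxia replicates 1 and 2), over which the adjusted p reached 0.135. Of the RNF43 exon bases in the GENCODE annotation, 69.05% are shared with TSPOAP1-AS1 and a second unnamed gene. Of those of AXIN2, 25.32% are shared with an unnamed gene. TCF7 shares 2.08% with SKP1, the only partner of any member whose GENCODE name was among the genes counted. LEF1, NOTUM, LGR5 and NKD1 share 5.20%, 5.08%, 3.98% and 0.386% with genes whose GENCODE names were not among those counted. Other names of the partners were not searched. Whether the counting used strand is not stated, so reads of members and the genes that share their bases could not be separated.

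The members that were lower in HCT116 included the R-spondin receptor and 2 transcription factors. LGR5 (chromosome 12, 71833578 to 71980090, plus strand) had 14, 16, 19 and 15 counts in normoxic PC3 and 0, 2 and 1 in normoxic HCT116, all 3 of the latter within the floor. From the 64 and 3 counts in all, LGR5 was 19.1 times as high in PC3 (95% counting interval 6.25 to 95.1), with edgeR adjusted p = 6.46e-05. Its level in PC3, 0.137 ± 0.032 CPM (SD, n = 4), was itself low. LEF1 (chromosome 4, 108968701 to 109090112, minus strand) had 40, 69, 51 and 49 counts in normoxic PC3 and 0 in each normoxic HCT116 library. Against the highest level of 3 counts in a normoxic HCT116 library, 0.0224 CPM, LEF1 was at least 19.7-fold higher in PC3 (edgeR adjusted p = 4.98e-08). In hypoxia it had 182 counts over the PC3 libraries and 2 over the HCT116 libraries, a ratio of 112 (95% counting interval 30.5 to 931).

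SP5 (chromosome 2, 171571847 to 171574588, plus strand), whose promoter window held the 3 TCF and LEF matches above, was lower in the line with mutant beta-catenin. Its levels were 4.00, 3.22, 3.58 and 2.82 CPM in normoxic PC3 and 1.01, 0.985 and 1.19 CPM in normoxic HCT116. The libraries did not overlap, and SP5 was 3.21-fold lower in HCT116 (log2 fold change -1.68 ± 0.20, edgeR adjusted p = 1.34e-06). TCF7 (chromosome 5, 133450372 to 133487556, plus strand) went the other way, from 12.4, 13.5, 13.97 and 15.9 CPM in PC3 to 38.8, 34.0 and 34.2 CPM in HCT116 (log2 fold change 1.36 ± 0.09, edgeR adjusted p = 2.47e-09). TCF7 and LEF1, members of one family of DNA-binding proteins, thus differed between the lines in opposite directions. ASCL2 (chromosome 11, 2289728 to 2291818, minus strand) had 1 or 2 counts in each normoxic PC3 library and 1, 0 and 0 in normoxic HCT116, and no fold is given. In hypoxic PC3 it had 3, 2, 7 and 0 counts and in hypoxic HCT116 none, so 1 of 14 libraries, PC3 hypoxia replicate 3, was above the floor.

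**Figure D2:**
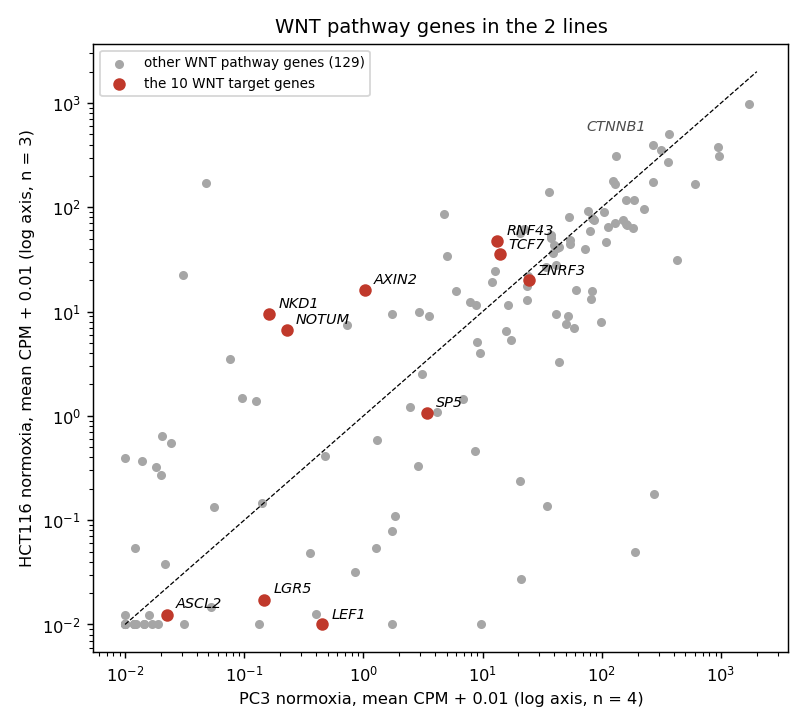
Mean expression in normoxic PC3 (x axis) and normoxic HCT116 (y axis) of the 10 members (red) and of 129 other WNT pathway genes (grey), in CPM plus 0.01 on log axes, with a dashed line of equal levels. AXIN2, NKD1, NOTUM, RNF43 and TCF7 lie above the line, SP5, LGR5 and LEF1 lie below it, and ZNRF3 and CTNNB1 lie near it.

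CTNNB1, the gene of beta-catenin itself, differed far less between the lines than NKD1, NOTUM or AXIN2. It was at 369 ± 3 CPM (SD, n = 4) in normoxic PC3 and 501 ± 40 CPM (n = 3) in normoxic HCT116, with no overlap (log2 fold change 0.44 ± 0.08, edgeR adjusted p = 1.43e-04). The difference between the lines was seen again in hypoxia, with 8 members called, the same 5 higher and SP5, LEF1 and LGR5 lower. The log2 fold changes of the lines in hypoxia were 6.56 for NKD1, 5.36 for NOTUM, 3.63 for AXIN2, 1.67 for RNF43, 1.12 for TCF7 and -1.24 for SP5. Markers of other cell types also moved with the line. Of the 6 mesenchymal markers, COL1A2, PDGFRB and DCN were under 1 CPM in both lines, and the summed level was 832 to 1430 CPM in PC3 and 22.5 to 38.7 CPM in HCT116. In normoxia VIM was at 549 and 6.78 CPM and FN1 at 374 and 9.42 CPM in PC3 and HCT116, whereas COL1A1 was at 8.38 and 10.6 CPM. The prostate markers TMPRSS2 (20.4 and 0.00485 CPM) and HOXB13 (81.0 and 10.02 CPM) and the leukocyte marker CD68 (36.2 and 8.29 CPM) had higher levels in PC3, with the leukocyte markers PTPRC and CD3E under 1 CPM in both lines, and the colon marker CDX2 was at 0 and 17.6 CPM. The part of these differences in the members' levels was not tested.

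Per kilobase of the reference (MANE Select) transcript, so that genes can be set beside each other, TCF7 was the most abundant member in normoxic PC3 at 4.24 ± 0.44 RPKM (SD, n = 4), followed by ZNRF3 (3.54), RNF43 (2.94), SP5 (1.66), AXIN2 (0.238), LEF1 (0.123), NOTUM (0.0975), LGR5 (0.0299), NKD1 (0.00893) and ASCL2 (0.00843). The ranges over libraries of TCF7 and ZNRF3, of LEF1 and NOTUM, and of NKD1 and ASCL2 overlapped. In normoxic HCT116 the order was TCF7 (10.8 ± 0.8 RPKM, n = 3), RNF43 (10.6), AXIN2 (3.79), NOTUM (3.01), ZNRF3 (2.90), NKD1 (0.560), SP5 (0.518), LGR5 (0.00157), ASCL2 (0.00150) and LEF1 (0). Here the ranges of TCF7 and RNF43, of NOTUM and ZNRF3, of NKD1 and SP5, and those of the last 3 genes with each other overlapped. TCF7 and RNF43 thus led in HCT116, while SP5 fell from the fourth place to the seventh. In hypoxia TCF7 (4.09 ± 0.36 RPKM) led in PC3, and RNF43 (9.62 ± 1.52) and TCF7 (8.91 ± 0.59), whose ranges overlapped, led in HCT116. The NKD1 reference transcript is 17039 bases long, and its RPKM depends on how much of it the cells use.

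The second question was whether hypoxia alters the targets within a line. In PC3, 0 of the 9 members tested passed edgeR's test (adjusted p under 0.05) and 1, AXIN2, had an unadjusted p under 0.05, against 11.3% of 14309 genes called, 6.03% higher and 5.29% lower. The median log2 fold change was -0.067 over these members and 0.0023 over all genes. AXIN2 was at 0.914, 1.12, 1.19 and 0.837 CPM in normoxia and 1.48, 1.44, 1.65 and 1.46 CPM in hypoxia in replicates 1 to 4. Every hypoxic library was above every normoxic one, as for 9.62% of genes in this direction, and the hypoxic library of each number was 1.62, 1.28, 1.39 and 1.74 times its normoxic one. The log2 fold change was 0.58 ± 0.17 (95% interval 0.21 to 0.95), and the edgeR adjusted p of 0.0530 missed the threshold. The PC3 libraries of one number deviated together, and with the replicate number as a block the log2 fold change was 0.58 ± 0.14 and AXIN2 passed (edgeR adjusted p = 0.0247), while the calls over all genes went from 1620 to 4074. DESeq2 called AXIN2 as well (adjusted p = 0.0105), and over all alternatives its adjusted p ran from 0.00890 to 0.127.

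The other members in PC3 had overlapping libraries in both conditions. LEF1 was at 0.335, 0.529, 0.494 and 0.406 CPM in normoxia and 0.394, 0.647, 0.527 and 0.670 CPM in hypoxia (log2 fold change 0.34, 95% interval -0.20 to 0.87, edgeR adjusted p = 0.400). The well-measured RNF43, TCF7, ZNRF3 and SP5 had log2 fold changes of 0.05, -0.05, -0.14 and -0.07. ZNRF3 was lower in hypoxia in 4 of 4 pairs of one number (0.963, 0.889, 0.953 and 0.789 times), with a blocked 95% interval of -0.298 to -0.0065 and edgeR adjusted p = 0.107. NKD1, on 4 to 13 hypoxic counts, was lower in 4 of 4 pairs (edgeR blocked adjusted p = 0.187) and LEF1 higher in 4 of 4 (0.247), neither past the threshold. The share of all genes that agree in 4 of 4 pairs was not computed, so these counts of pairs have no background. Without the block, the 95% intervals of RNF43, TCF7, ZNRF3 and SP5 ran from -0.18 to 0.28, -0.26 to 0.17, -0.41 to 0.12 and -0.52 to 0.39, so a rise or fall of 2-fold lay outside all of them. Hypoxic replicate 4, the smallest of the 14 libraries, had the lowest PC3 level of 6 members: ZNRF3 (17.2 CPM), RNF43 (11.7), SP5 (2.26), NOTUM (0.0447, 3 counts), LGR5 (0.0298, 2 counts) and ASCL2 (0). Counts of NKD1, NOTUM and LGR5 were 2 to 30 in the hypoxic libraries, and their intervals were wide, from -1.72 to 0.27 for NKD1, -1.26 to 0.97 for NOTUM and -1.37 to 0.45 for LGR5. These 3 genes could have fallen by more than 2-fold within their intervals, and ASCL2 was not tested.

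In HCT116, LGR5, ASCL2 and LEF1 had too few counts for the test, and of the 7 members tested 1 was called, TCF7, which was lower in hypoxia. Over all genes 25.9% of 14120 were called, 14.6% higher and 11.3% lower, so 1 of 7 did not exceed the background. A further 3 members, AXIN2, NOTUM and SP5, had an unadjusted p under 0.05 and missed the adjusted threshold. TCF7 was at 38.8, 34.0 and 34.2 CPM in normoxia and 29.7, 27.2 and 31.0 CPM in hypoxia. All hypoxic libraries were below all normoxic ones, as for 22.2% of genes in this direction (42.5% in either), and TCF7 fell by 0.27 ± 0.07 on the log2 scale, or 1.20-fold (edgeR adjusted p = 0.0221). The call was lost without HCT116 normoxia replicate 1 (adjusted p = 0.0868) or hypoxia replicate 2 (0.0806), and in 1 fit over both lines (0.0840).

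SP5 was at 1.01, 0.985 and 1.19 CPM in normoxic HCT116 and 1.40, 1.42 and 1.30 CPM in hypoxic HCT116. Its conditions did not overlap, with hypoxia above, as for 20.3% of genes, yet the log2 fold change of 0.39 ± 0.17 missed the threshold (edgeR adjusted p = 0.106). NOTUM was at 6.31, 6.41 and 7.36 CPM in normoxia and 6.75, 9.34 and 8.45 CPM in hypoxia. These overlapped (log2 fold change 0.30 ± 0.12, edgeR adjusted p = 0.0863), and NOTUM was called without HCT116 hypoxia replicate 1 (0.0236) or normoxia replicate 3 (0.0465). AXIN2 was at 15.0, 16.9 and 16.6 CPM in normoxia and 17.4, 16.7 and 22.0 CPM in hypoxia (log2 fold change 0.22 ± 0.10, edgeR adjusted p = 0.124), with hypoxic replicate 3 the highest. Without HCT116 hypoxia replicate 3 the AXIN2 value was 0.10 (0.432), and with each library left out in turn it ran from 0.10 to 0.30. NKD1, RNF43 and ZNRF3 overlapped between conditions, with log2 fold changes of -0.12, -0.12 and -0.02 and 95% intervals from -0.31 to 0.07, -0.33 to 0.09 and -0.22 to 0.18. The median log2 fold change was -0.017 over the 7 members and 0.0018 over all genes.

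**Figure D3:**
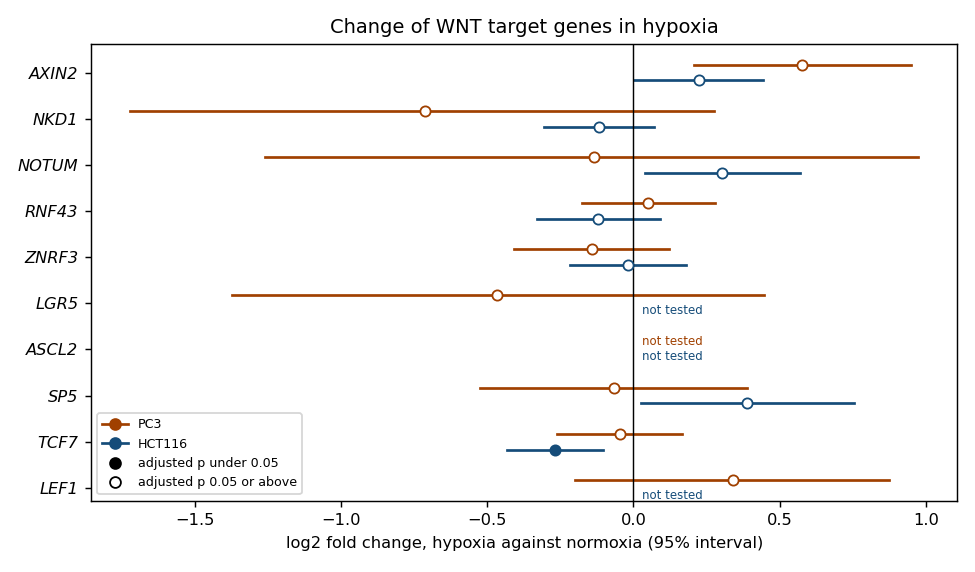
Log2 fold change of each member in hypoxia against normoxia (x axis) in PC3 and HCT116, with 95% intervals from edgeR and filled points where the adjusted p is under 0.05. TCF7 in HCT116 (-0.27) is the only filled point, and the intervals of AXIN2 in PC3 (0.21 to 0.95) and of AXIN2, NOTUM and SP5 in HCT116 also exclude 0.

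**Figure D4:**
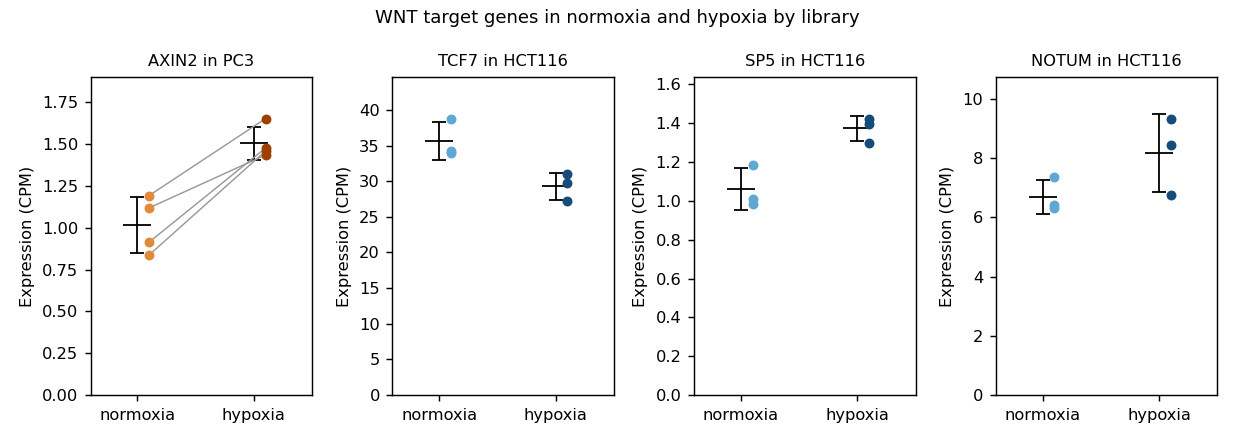
CPM per library in normoxia and hypoxia (axes start at 0) for AXIN2 in PC3 and TCF7, SP5 and NOTUM in HCT116, with black bars at the mean and SD and grey lines joining the PC3 libraries of one number. AXIN2 goes from 0.837 to 1.19 CPM up to 1.44 to 1.65 CPM, TCF7 from 34.0 to 38.8 down to 27.2 to 31.0, SP5 from 0.985 to 1.19 up to 1.30 to 1.42, and the NOTUM conditions overlap.

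Whether hypoxia acted differently in the 2 lines was tested by the interaction of line and oxygen. ASCL2 was not tested, and LGR5 and LEF1, with 0 to 2 counts in each HCT116 library, entered through their counts in PC3 and could show little of a difference (LEF1 adjusted p = 0.466). None of these 9 members, of which the other 7 were measured in both lines, was called, none had an unadjusted p under 0.05, and 2.32% of 15493 genes were called, 1.31% with the more positive change in HCT116 and 1.01% with the more negative, and DESeq2 called 0 members as well. For AXIN2 the change in HCT116 minus that in PC3 was -0.36 (95% interval -0.76 to 0.03, edgeR adjusted p = 0.358), for TCF7 -0.23 (-0.52 to 0.06, 0.438) and for SP5 0.45 (-0.13 to 1.02, 0.470). For RNF43 and ZNRF3 it was -0.18 (-0.50 to 0.14) and 0.11 (-0.25 to 0.47). The intervals of NKD1 (-0.20 to 1.45), NOTUM (-0.55 to 1.37) and LGR5 (-4.73 to 2.60) left room for differences of more than 2-fold. CTNNB1 had log2 fold changes of 0.12 ± 0.07 in PC3 (edgeR adjusted p = 0.317) and 0.24 ± 0.08 in HCT116 (0.0544).

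The other genes of the pathway, 129 in lists by role, set the members in context. In hypoxia, 13 rose and 1 fell of the 97 tested in PC3, 14.4% against 11.3% of all genes, and 29 rose and 2 fell of the 98 tested in HCT116, 31.6% against 25.9%. Among other genes reported as beta-catenin targets, 9 of 28 rose in PC3, and 12 of 27 rose and 1 fell in HCT116. The largest rises there in PC3 were those of the secreted matrix protein gene WISP1 (2.74 ± 0.19 on the log2 scale, edgeR adjusted p = 1.26e-04), the nuclear receptor PPARD (0.91 ± 0.07), the ephrin receptor EPHB3 (0.91 ± 0.15) and TRIB2 (0.68 ± 0.18). WISP1 reached 2.59 CPM and neighbours NDRG1, which was at 2532 CPM in hypoxic PC3; the part of reads from NDRG1 in the WISP1 count was not tested. In HCT116 they were JUN (1.41 ± 0.15), a subunit of AP-1, EPHB3 (1.13 ± 0.11), the urokinase receptor PLAUR (0.78 ± 0.10) and TRIB2 (0.47 ± 0.08). EPHB3 and TRIB2 rose in both lines. The change of PPARD was lower in HCT116 than in PC3 (interaction -0.85 ± 0.09, edgeR adjusted p = 1.49e-04), that of PLAUR was higher (0.64 ± 0.15, 0.0378), and TBX3 was the third gene called (-0.51 ± 0.11, 0.0289). These were 3 of the 108 pathway genes tested for the interaction, 2.78%, near the 2.32% of all genes called.

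Called in PC3 and HCT116 were 11.3% and 25.9% of all genes (6.03% and 14.6% higher). The shares by list were 7.69% and 38.46% of ligands, 14.29% and 17.65% of receptors, and 5.56% and 16.67% of the destruction complex and relay. They were 5.88% and 31.25% of the nuclear complex, 0% and 20% of antagonists and 0% and 50% of secretion genes. Among the ligands, WNT7A rose in PC3 (0.61 ± 0.09, from 34.4 to 52.3 CPM), 1 of 13 tested. In HCT116, 5 of 13 ligands rose, with log2 fold changes of 1.04 for WNT6, 0.96 for WNT9A, 0.66 for WNT16 (from 171 to 266 CPM) and 0.60 for WNT3A. Of the receptors, the Frizzled receptor gene FZD8 rose in PC3 (0.98 ± 0.14, from 275 to 540 CPM) and the WNT5A receptor gene ROR1 fell (-0.34 ± 0.09), while in HCT116 ROR2 (0.42) and FZD7 (0.37) rose and FZD6 fell (-0.40). In the destruction complex and cytoplasmic relay, the kinase gene GSK3B rose in PC3 (0.25 ± 0.07), and APC2 (0.61), the tankyrase gene TNKS (0.43), whose product promotes AXIN degradation, and USP34 (0.24) rose in HCT116, 1 and 3 of 18 tested. In the nuclear complex, TCF7L1, mostly a repressor in this family, rose in both lines (0.41 ± 0.09 in PC3 and 0.38 ± 0.08 in HCT116), and the corepressor genes TLE1 (0.52) and TLE3 (0.39) and the coactivator gene CREBBP (0.29) rose in HCT116, where 5 of 16 were called. Of the secreted and membrane antagonists, 0 of 5 were called in PC3 and 1 of 5 in HCT116, KREMEN1 (0.29). The WNT carrier gene WLS rose in HCT116 (0.26) and 0 of 2 secretion genes were called in PC3.

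**Figure D5:**
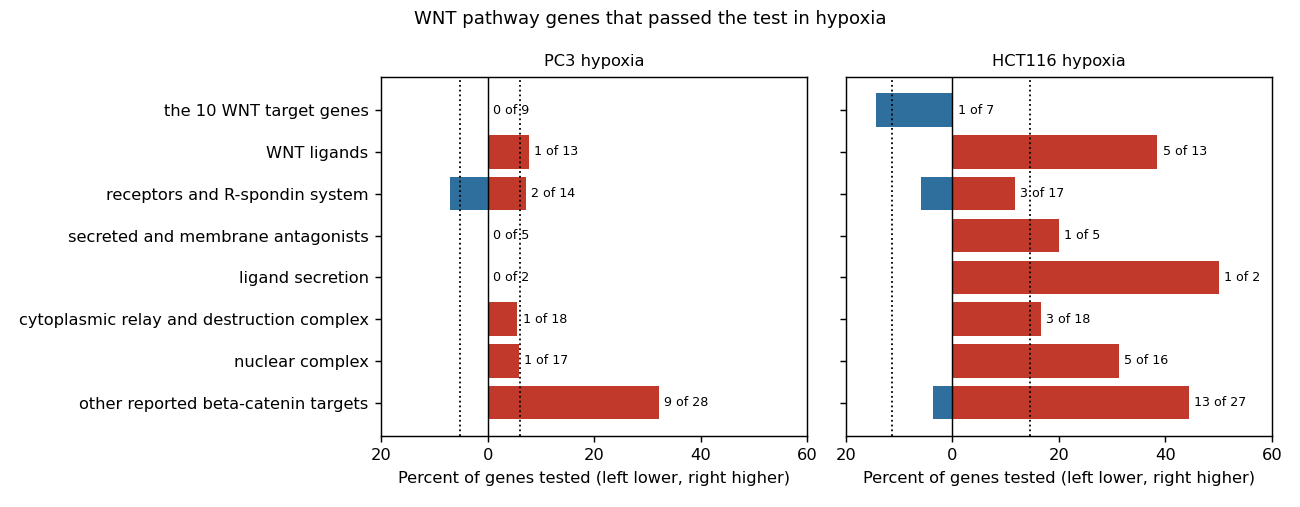
Percent of the tested genes of each WNT list called higher (red, to the right) or lower (blue, to the left) in hypoxia in PC3 and HCT116, with the number called of the number tested and dotted lines at the percent of all genes. The 10 target genes have 0 of 9 and 1 of 7 called, and the other reported beta-catenin targets have 9 of 28 and 13 of 27.

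Between the lines in normoxia, 98 of the 108 pathway genes tested differed, 35 higher and 63 lower in HCT116, 90.7% against 81.3% of all genes. The lines differed in the ligands they expressed: WNT16 (171 CPM) and WNT3A (3.54 CPM) were at 0.0377 and 0.0666 CPM in PC3, and WNT7A (34.4 CPM in PC3) was at 0.128 CPM in HCT116, where WNT5A had 0 counts in all normoxic libraries. Of the receptors, FZD8 was at 275 ± 31 CPM (SD) in PC3 and 0.167 ± 0.182 CPM in HCT116, ROR1 at 44.2 and 3.29 CPM, LGR4 at 58.3 and 6.98 CPM, and ROR2 at 0.0207 and 22.4 CPM. The antagonist DKK1 was 3.10-fold lower in HCT116 (960 and 309 CPM) and KREMEN1, its co-receptor, 6.82-fold higher. NKD2, the relative of NKD1, was 5.52-fold higher in HCT116, GSK3B was 2.88-fold lower, and DVL2 and TNKS were 2.81 and 2.74-fold higher. In the nucleus, TCF7L2 rose from 36.2 ± 8.2 CPM in PC3 to 141 ± 6 CPM in HCT116, like TCF7, whereas the corepressor gene TLE4 (9.65 CPM in PC3) had 0 counts in the normoxic HCT116 libraries. Other reported beta-catenin targets were mostly lower in HCT116, 23 of 31 tested against 6 higher. Over all genes, 42.4% were lower and 38.9% higher in HCT116. The largest differences among these targets were those of CLDN1 (190 and 0.0394 CPM), NEDD9 (21.0 and 0.0172 CPM), EDN1 (20.5 and 0.227 CPM) and TNFRSF19 (8.65 and 0.449 CPM), all lower in HCT116.

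The genes whose log2 of CPM plus 1 followed AXIN2 most closely over the 14 libraries were PDE9A, SEPT3, TUBB2A, SLC38A5 and TFR2, with Pearson r of 0.997 for each. This describes the difference between the lines, since 302 of the 15492 other genes had r above 0.99. Of the members, NOTUM was at r = 0.991, NKD1 at 0.99, RNF43 at 0.984 and TCF7 at 0.960, while ZNRF3 was at -0.582, SP5 at -0.931, LEF1 at -0.942 and LGR5 at -0.889. With the mean of each line subtracted, the closest genes were MTMR1 (0.891), BOC (0.887), NR2F2 (0.883), C11orf84 (0.882) and DND1 (0.879), and the members ran from 0.470 for LEF1 to -0.415 for NKD1. Within the lines, no other member followed AXIN2 closely on this scale over the libraries, which share their depth and oxygen condition. The added 1 CPM flattens members far under 1 CPM, such as NKD1, NOTUM and LGR5 in PC3 and LEF1 and LGR5 in HCT116. For these genes the correlation could show little within that line.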

How the data were processed

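Polyadenylated RNA from 14 cultures was sequenced. Per the labels and the study's methods, the authors aligned reads with HISAT2 (2.05) to ERCC spike-in sequences and then to GRCh37, counted reads in RefSeq genes with HTSeq (0.5.4p3, intersection-strict) and deposited 1 unnormalised count per gene and library. Strand setting and RefSeq release are not given in the sources used here, and the ERCC counts are not analysed here, so changes are relative to the other genes. Counts of replicates differed by a chi-square of at least 12.5 per gene, so each library counted as 1 replicate.

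edgeR (4.0.16, R 4.3.3) was applied per line: filterByExpr (minimum count 10), TMM and the two-sided quasi-likelihood test, with Benjamini-Hochberg adjustment over all genes tested and a threshold of 0.05. The line contrast and the interaction were fitted over all 14 libraries. P-values measure the spread between these replicates only. Each standard error was obtained as the estimated log2 change over √F. CPM and RPKM (per kilobase of the GENCODE v44lift37 MANE Select transcript) were computed from the deposited counts. The fits were tested on simulated data. Alternatives were DESeq2 (1.42.0), other scalings and filters, a replicate block, 1 fit over both lines and leaving out libraries. The main PC3 fit was unpaired, and the PC3 numbers were taken as pairs only in the ratios and in the block. Deviations from the group means correlated within each pair (r = 0.831, 0.472, 0.314 and 0.408 for numbers 1 to 4, over genes averaging 1 CPM or more). Between PC3 libraries of different numbers r ran from -0.577 to 0.346.

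The members and lists were chosen with earlier results of these data known. All members are named in each comparison. From each other list, up to 4 called genes with the largest change and a mean of at least 1 CPM in either group are named, with CTNNB1 and the hypoxia genes, and the 5 genes nearest to AXIN2 in either correlation.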

Additional observations from a re-analysis of the deposited data

Results flagged for a closer look

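Of 20 sets of 4 PC3 libraries tested for a sample far from the others (each member in each condition), 1 stood out, where chance gives about 1 in 20. LGR5 in PC3 normoxia replicate 3 was at 0.184 CPM, on 19 counts, with the other 3 libraries between 0.117 and 0.124 CPM, on 14 to 16 counts. The groups of 3 HCT116 libraries were not tested.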

How the results depend on the processing

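Over the alternatives, the number of members called stayed at 0 for the interaction under all of them and moved elsewhere. In PC3 it was 1 instead of 0, AXIN2 each time, with DESeq2, with at least 10 counts in every library, with the replicate block and in 1 fit over both lines, and 0 to 0 without single libraries. In HCT116 it was 0 instead of 1 when a log2 change of at least 1 was required and in 1 fit over both lines, and 0 to 2 without single libraries. Between the lines it was 5 of the 5 tested with at least 10 counts in every library, since fewer members passed that filter, and 8 to 9 without single libraries. Directions turned only for values near 0 or of few counts: in PC3, NOTUM (0.0064 without both libraries of number 1, an alternative chosen after seeing the data, and -0.46 to 0.17 without single libraries), RNF43 (-0.051 with scaling by total counts alone, and -0.025 to 0.12), SP5 (-0.25 to 0.072) and TCF7 (-0.10 to 0.016), in HCT116 ZNRF3 (-0.10 to 0.056), and in the interaction LGR5 (-2.45 to 0.081). The cause was not tested.

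Over all genes, the 1620 PC3 calls became 4074 with the replicate block, 2601 with DESeq2, 2465 in 1 fit over both lines and 553 to 2085 without single libraries. The 3658 HCT116 calls became 1733 in 1 fit over both lines, and the 359 interaction calls became 974 with DESeq2, 1306 with the block and 177 to 717 without single libraries. The share of higher genes among the calls went from 53.3% to 39.4% in PC3 with upper-quartile scaling and to 24.5% with total counts, from 56.3% to 29.0% in HCT116 with total counts, and from 56.5% to 70.7% in the interaction with upper-quartile scaling. Scaling by total counts moved the median log2 fold change to -0.103 in PC3 and -0.133 between the lines. In HCT116, r within numbers 1 to 3 was 0.092, 0.388 and -0.059, and only number 2 exceeded the range between different numbers (-0.28 to 0.21). Across the lines in normoxia, r within a number ran from -0.040 to -0.00074. The replicate block left the members called at 1 in HCT116, 9 between the lines and 0 in the interaction. LGR5, ASCL2 and LEF1 had at most 2 counts per library in HCT116, though every HCT116 library was larger than every PC3 library. Their change in hypoxia was therefore not tested in the main HCT116 fit.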
